A study of Mus musculus with 9 samples.

Results

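The 7 genes described here are classic responders of the glucocorticoid receptor pathway together with the gene of the receptor itself. They are Fkbp5 (Mm.276405), Tsc22d3 (Mm.22216), Per1 (Mm.7373), Dusp1 (Mm.239041), Sgk1 (Mm.28405), Klf9 (Mm.291595) and the receptor gene Nr3c1 (Mm.129481). They were chosen by their UniGene cluster numbers, and all 7 were found among the 17810 clusters of the deposited array table, each with a single probe set. The pairing of number and gene symbol came with the definition of the set. The gene table used here named 0 of the clusters, so that pairing, the identity of the cells and further lists of glucocorticoid targets and receptor cofactors were not checked on these arrays.

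The cells were bone marrow-derived macrophages, grown from C57BL/6 mouse bone marrow in the presence of M-CSF, the growth factor of macrophages, at 30 ng/ml. On day 4 the medium was exchanged, and RNA was taken 3 days later, after 7 days of culture. One group, dexa+IL4, was given the synthetic glucocorticoid dexamethasone at 5e-07 M and the cytokine IL-4 at 10 ng/ml. Another received medium conditioned by the mouse melanoma line B16F1 (cmB16F1), and the last received the conditioned medium with dexamethasone and IL-4 (cmB16F1+dexa+IL4, here the combination). M-CSF was part of the culture of every group. Each group had 3 arrays, and the labels do not say whether these came from separate mice or cultures, so the p-values measure the spread between arrays. Dexamethasone was never given without IL-4, and arrays of plain medium were not analysed here, so neither agent can be told apart from the other and no interaction with the medium could be fitted.

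Glucocorticoids enter the cell and bind their receptor, which is held ready in the cytoplasm by chaperones. The bound receptor moves to the nucleus, where pairs of it bind short palindromic elements and raise or lower transcription. In macrophages the pathway is known for restraining inflammatory genes and for supporting the uptake of dead cells. Its targets include its own brakes: Fkbp5 encodes a co-chaperone that lowers the receptor's affinity for hormone, and the receptor's mRNA often falls under sustained hormone.

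The element the receptor pairs bind was taken in its strict form, AGAACA and TGTTCT with any 3 bases between them, which reads alike on both strands. It was searched, together with its single arm AGAACA on either strand (a full element counts as both), in RefSeq promoter windows of GRCm38.p6 that run from 250 bases before to 50 after a gene's start. All 7 symbols were found in the RefSeq gene table, and 14 windows of 6 of the genes were searched, none of Nr3c1. The full element lay in 1 of them, and a single arm in 4, which belong to Sgk1 and Tsc22d3. Among all 32851 windows, 3 (0.00913%) held the full element and 19.0% a single arm. Genes with many annotated starts have more windows: Sgk1 had 6, and of the 53 genes with 6 windows or more only Sgk1 itself (1.89%) held the full element. The Sgk1 and Tsc22d3 stretches are shown because only these of the 6 genes held a match in these windows. Of all genes, 21.3% held a single arm in at least 1 window. Tsc22d3 had 3 windows, whereas 84.6% of all genes had 1. Whether a match bears on the level of either gene was not tested. Capitals mark the full element in Sgk1, at bases -189 to -175 from one of its starts, and the single arm in Tsc22d3, at bases -185 to -180. A separate single arm in the Sgk1 stretch, at bases -242 to -237, is left in lower case. The first stretch is chr10:21993641-21993805 on the plus strand, and the second is chrX:140600672-140600737 on the minus strand.
Sgk1: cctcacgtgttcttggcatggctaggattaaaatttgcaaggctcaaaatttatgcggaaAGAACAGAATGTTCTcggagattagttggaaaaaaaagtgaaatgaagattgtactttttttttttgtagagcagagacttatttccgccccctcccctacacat
Tsc22d3: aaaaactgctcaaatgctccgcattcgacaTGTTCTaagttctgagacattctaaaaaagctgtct

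Both stretches lie upstream of a start that RefSeq annotates for the gene, and which start was used in these cells was not measured. The single windows of Fkbp5, Dusp1 and Klf9 and both windows of Per1 held no match. Looser forms of the element and sites outside these windows were not searched, so no match does not mean no element. A match is a match of letters only, and binding of the receptor was not measured in this series.

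Fkbp5, Tsc22d3, Klf9 and Per1 were higher in both groups given dexamethasone than in cmB16F1 alone, by 2.07-fold to 6.80-fold, and conditioned medium left no difference in them that passed the test. Sgk1 stood apart: dexa+IL4 exceeded cmB16F1 by 1.60-fold, but the combination was 1.90-fold lower than dexa+IL4. Nr3c1 fell 1.24-fold in the combination against cmB16F1. Dusp1 passed the test in no comparison, and a single dexa+IL4 array lay far below the other two.

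All values are the authors' log2 probe-set values, in which a step of 1 is a doubling. They run from 5.86 to 14.2, and the array medians lie between 7.19 and 7.25. Differences were tested with limma, a linear model fitted over all features, with Benjamini-Hochberg adjusted p under 0.05 as the threshold. The bacterial poly-A control sets, which lie from 6.09 to 7.00, serve as a guide to the low end of the scale, and each of the 7 genes lay above them on every array. Since the arrays measured whole cultures, fewer cells expressing a gene and less RNA per cell cannot be told apart.

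**Figure D1:**
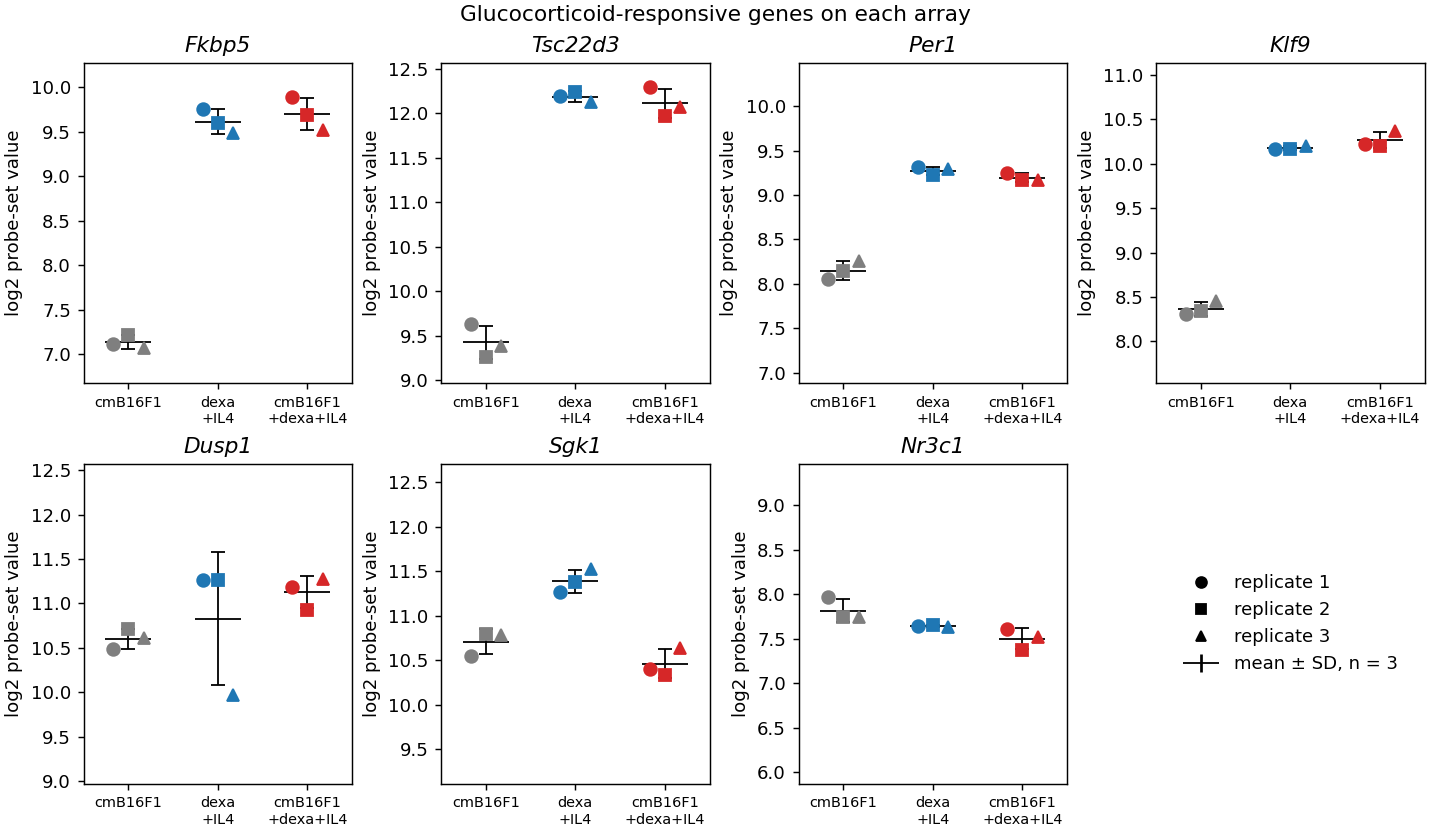
The log2 probe-set value of each gene (vertical axis) is plotted for the 9 arrays in 3 groups (horizontal axis), with bars for the mean ± SD of 3 arrays and a span of at least 3.6 log2 units in every panel. In Fkbp5, Tsc22d3, Per1 and Klf9 both groups given dexamethasone lie above cmB16F1, in Sgk1 only dexa+IL4 lies above it, and in Dusp1 dexa+IL4 replicate 3, at 9.97, lies below all other arrays.

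Fkbp5 encodes FKBP51, the co-chaperone of the receptor's own feedback loop. Its values were 7.12, 7.22 and 7.06 in cmB16F1, 9.76, 9.60 and 9.48 in dexa+IL4, and 9.89, 9.69 and 9.53 in the combination (replicates 1, 2 and 3). The arrays with and without dexamethasone did not overlap, and the groups with it did. Against cmB16F1 the change was 2.48 on the log2 scale in dexa+IL4 (SE 0.0986, limma adjusted p = 1.717e-07) and 2.57 in the combination (limma adjusted p = 1.715e-07), that is 5.58-fold and 5.93-fold. The cmB16F1 mean, 7.13 ± 0.08 (SD, n = 3), was barely above the top of the bacterial controls, so both folds may be too small.

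Tsc22d3 encodes GILZ, a leucine zipper protein that binds and restrains NF-kappaB and AP-1. In cmB16F1 it was at 9.63, 9.26 and 9.39. In dexa+IL4 it was at 12.20, 12.25 and 12.13, and in the combination at 12.30, 11.97 and 12.07. Every array given dexamethasone lay more than 2 log2 units above every array without it. The rise was 6.80-fold in dexa+IL4 (2.77, SE 0.106, limma adjusted p = 1.385e-07) and 6.44-fold in the combination (2.69, limma adjusted p = 1.898e-07), the largest fold of the 7 genes in both comparisons.

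Klf9 encodes a Krüppel-like zinc finger transcription factor whose gene is a direct target of the receptor in many tissues. Its 3 dexa+IL4 arrays, at 10.17, 10.16 and 10.20, spanned 0.03, the narrowest spread of the rising genes. The combination was at 10.22, 10.20 and 10.37, and cmB16F1 at 8.31, 8.34 and 8.46. The gene rose 3.50-fold in dexa+IL4 and 3.72-fold in the combination against cmB16F1 (limma adjusted p = 8.221e-08 and 7.727e-08).

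Per1 encodes a repressor of the circadian clock that glucocorticoids can reset. Its values were 8.05, 8.14 and 8.26 in cmB16F1, 9.31, 9.22 and 9.29 in dexa+IL4, and 9.25, 9.17 and 9.17 in the combination. The arrays given dexamethasone lay close together and well above those of cmB16F1. The rise was 2.18-fold in dexa+IL4 and 2.07-fold in the combination (limma adjusted p = 1.250e-06 and 2.952e-06), the smallest of these 4 genes.

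Sgk1 encodes a kinase of the AKT family that acts on ion channels, transporters and FOXO factors. Its values were 10.54, 10.79 and 10.79 in cmB16F1, 11.26, 11.38 and 11.52 in dexa+IL4, and 10.40, 10.33 and 10.64 in the combination. The dexa+IL4 arrays lay above all 6 others, while those of the combination and cmB16F1 overlapped. The rise in dexa+IL4 over cmB16F1 was 0.68 (SE 0.103, limma adjusted p = 9.264e-04). The combination differed from cmB16F1 by -0.25, with a 95% confidence interval from -0.48 to -0.02, which missed the threshold (limma adjusted p = 0.165). Combination and cmB16F1 arrays of equal number deviated together over all clusters. Once a block for the replicate number entered the model, the same -0.25 passed (limma adjusted p = 0.0352). That block also covered the dexa+IL4 arrays, whose numbers were not taken to pair them with the others. A block on the combination and cmB16F1 alone was not fitted. The Sgk1 difference also passed with arrays scaled to their hybridization controls, at -0.46 (limma adjusted p = 0.0159), where the median of all clusters was -0.20. Adjusted p-values under that scaling are not directly comparable with the others, as set out below.

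Dusp1 encodes a phosphatase that switches off p38, JNK and ERK kinases. It was at 11.26, 11.26 and 9.97 in dexa+IL4, at 11.19, 10.93 and 11.28 in the combination, and at 10.49, 10.71 and 10.61 in cmB16F1. The third dexa+IL4 array lay below all the others, and the remaining 5 arrays given dexamethasone lay above all 3 of cmB16F1. That array was 1.29 below the mean of its 2 companions, and in no other cluster was it lower by 1 or more. Across all clusters its distance from the mean of the other dexa+IL4 arrays had an SD of 0.0957, against 0.0692 and 0.0809 for the other arrays of the group and 0.109 to 0.144 in the other groups. The other 6 genes spanned at most 0.28 in dexa+IL4.

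With all arrays the Dusp1 change against cmB16F1 was 0.23 in dexa+IL4, with a 95% confidence interval from -0.42 to 0.87, and 0.53 in the combination, with an interval from -0.12 to 1.17 (limma adjusted p = 0.623 and 0.298). Without dexa+IL4 replicate 3 the changes were 0.66 and 0.53, and both passed (limma adjusted p = 0.00299 and 0.00653). The array entered the second test only through the spread it shares with the others. With only the arrays of the combination and cmB16F1 in the fit, the 0.53 also passed (limma adjusted p = 0.0174).

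Nr3c1 encodes the glucocorticoid receptor. Its values were 7.96, 7.74 and 7.74 in cmB16F1, 7.64, 7.66 and 7.63 in dexa+IL4, and 7.61, 7.37 and 7.52 in the combination. The 3 groups did not overlap, with cmB16F1 highest and the combination lowest, though the gap between neighbouring arrays of cmB16F1 and dexa+IL4 was under 0.1. Narrower still was the gap between the highest combination array, at 7.607, and the lowest dexa+IL4 array, at 7.633. The combination fell by 0.32 on the log2 scale against cmB16F1 (SE 0.0718, limma adjusted p = 0.0148). This call was lost with only the arrays of these groups in the fit (limma adjusted p = 0.0505, the highest of 19 alternatives). The lowest limma adjusted p, 0.00111, came from scaling to hybridization controls, where adjusted p-values are not directly comparable with the others. The dexa+IL4 difference of -0.17, with an interval from -0.33 to -0.01, missed the threshold (limma adjusted p = 0.112). All 3 means, from 7.50 to 7.82, lay above the array medians of 7.19 to 7.25 but in the lower part of the scale, where changes may be too small.

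Against cmB16F1, 5 of the 7 genes were higher and 0 lower in dexa+IL4, where 25% of all clusters passed the test, 12.8% higher and 12.2% lower. In the combination 4 were higher and 1 lower, where 14.1% passed, 6.56% higher and 7.57% lower. The groups did not overlap in 6 of the genes in each comparison, against 44.3% and 28.5% of all clusters. The median change of the 7 genes was 1.12 and 1.05 on the log2 scale, and that of all clusters 0.02 and 0.01. The arms dexa+IL4 and cmB16F1 differ in every agent, and both comparisons share the cmB16F1 arrays. The genes were named as glucocorticoid-responsive with earlier results of these data known, so these counts describe them and do not test the list.

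Ordered from the highest change among all 17810 clusters, Tsc22d3 was number 11, Fkbp5 14, Klf9 34, Per1 115, Sgk1 316 and Dusp1 1559 in dexa+IL4. In the combination Tsc22d3 was number 14, Fkbp5 19, Klf9 37, Per1 102 and Dusp1 300. Sgk1 was then number 1202 and Nr3c1 number 887 from the lowest. These ranks are a description, with the cmB16F1 arrays again in both.

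**Figure D2:**
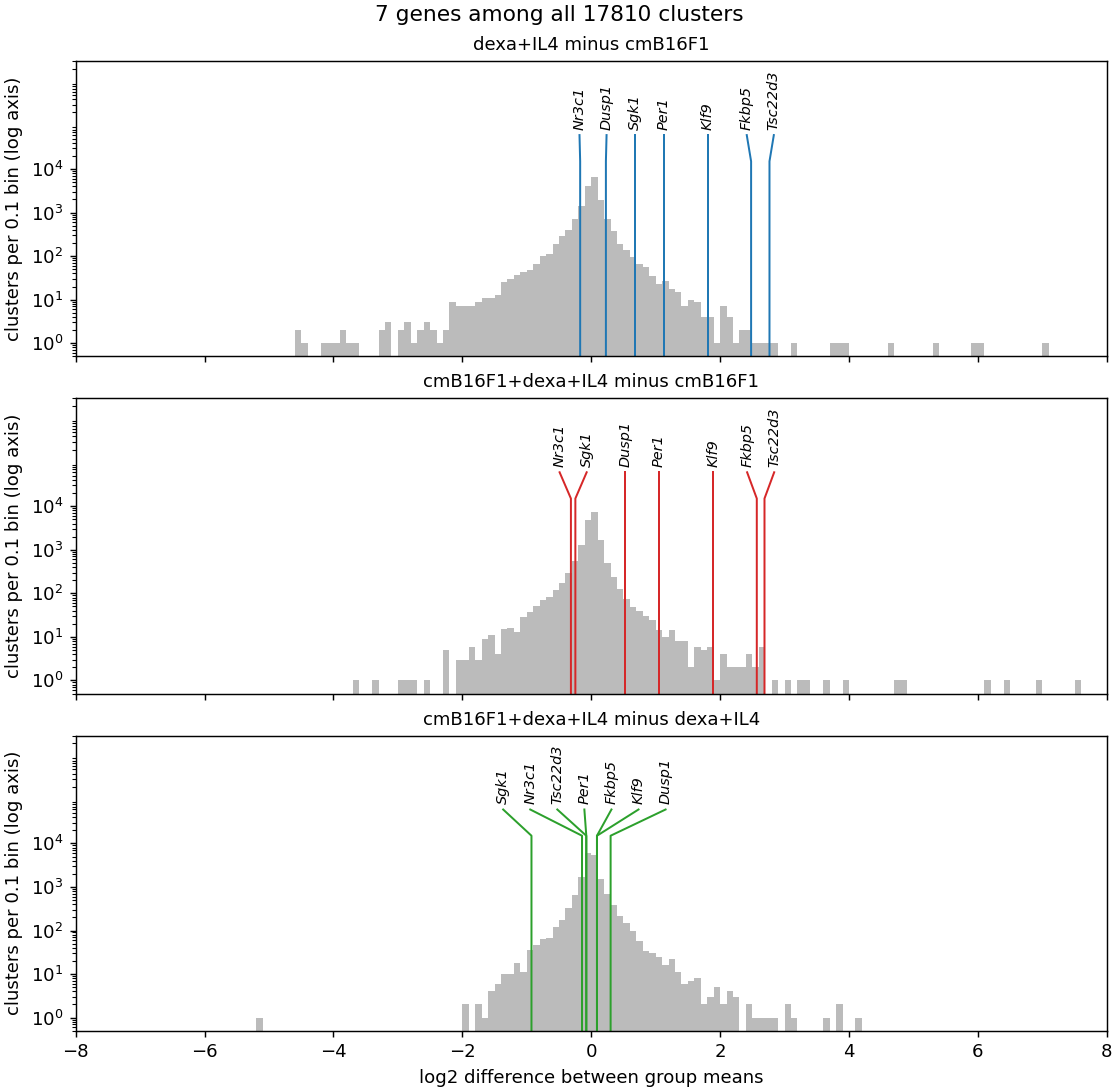
Grey bars count all 17810 clusters (vertical, log axis) by their log2 difference between group means (horizontal, bins of 0.1) in each of the 3 comparisons, and coloured lines mark the 7 genes. Tsc22d3, Fkbp5 and Klf9 lie in the upper tail of both comparisons with cmB16F1, whereas between the groups given dexamethasone Sgk1, at -0.93, is the gene farthest from the bulk.

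Setting the combination directly against dexa+IL4 compares the levels reached under dexamethasone and IL-4 with and without the medium. This comparison equals the difference of the changes given above. Equal-numbered arrays deviated together less closely between dexa+IL4 and the combination than between cmB16F1 and the combination. Whether dexa+IL4 was handled apart was not tested, and such a difference cannot be told apart from the medium here. Sgk1 was the single gene of the 7 to pass, and it was lower with the medium, where 17.9% of all clusters passed, 8.88% higher and 9% lower. Sgk1 differed by -0.93 (SE 0.103, 95% confidence interval from -1.16 to -0.70, limma adjusted p = 2.950e-04), with means of 10.46 ± 0.16 against 11.39 ± 0.13 (SD, n = 3). Every combination array was lower than every dexa+IL4 array, and the fall was number 90 from the lowest among all clusters. It passed under all 19 alternatives, with values from -1.18 to -0.86.

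For the 4 genes that rose in both groups, the differences were small beside the rises. Fkbp5 differed by 0.09 on the log2 scale, with a 95% confidence interval from -0.13 to 0.31, so the data allow from 0.913-fold to 1.24-fold of the dexa+IL4 level. Klf9 differed by 0.09, with an interval from -0.05 to 0.23. Its arrays did not overlap, but only just, with the lowest combination array at 10.198 and the highest dexa+IL4 array at 10.196. Tsc22d3 differed by -0.08, with an interval from -0.31 to 0.16, and Per1 by -0.08, with an interval from -0.21 to 0.06. The adjusted p-values from limma were 0.612, 0.402, 0.691 and 0.458. These intervals leave room for changes of up to about 0.31 in either direction, and a p above the threshold does not show that the medium had no effect.

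Dusp1 was 0.30 higher in the combination, with an interval from -0.34 to 0.94 (limma adjusted p = 0.548). Without dexa+IL4 replicate 3 the difference was -0.13 (limma adjusted p = 0.517). Nr3c1 was at 7.50 ± 0.12 against 7.64 ± 0.01 (SD, n = 3), a difference of -0.14 with an interval from -0.30 to 0.02 (limma adjusted p = 0.211). Its arrays did not overlap either, which made 3 such genes of 7 with Klf9 and Sgk1, against 36.1% of all clusters. The median size of the difference was 0.09 over the 7 genes and 0.07 over all clusters.

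**Figure D3:**
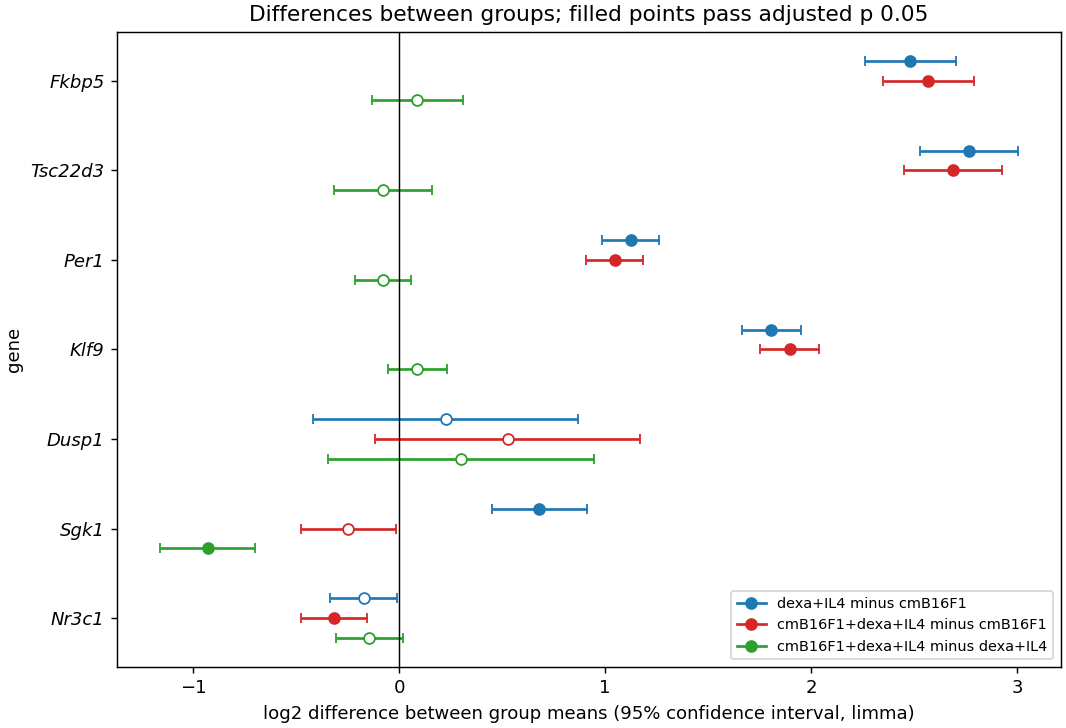
Points show the log2 difference between group means (horizontal axis) of each gene (vertical axis) in the 3 comparisons, with 95% confidence intervals from limma, and filled points passed the threshold of 0.05 on the adjusted p. The intervals of both comparisons with cmB16F1 lie close together for Fkbp5, Tsc22d3, Per1 and Klf9 and on opposite sides of 0 for Sgk1.

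The size of these differences depends on how arrays are scaled. When each array was shifted to its own hybridization controls, whose array means ran from 10.02 to 10.55, the median difference of all clusters between combination and dexa+IL4 moved to -0.26. Sgk1 was then at -1.18, which is 0.93 below that median, and Nr3c1 and Tsc22d3 also passed, at -0.40 and -0.33 (limma adjusted p = 0.0169 and 0.0470), that is 0.14 and 0.07 below it. Fkbp5 and Klf9 turned to -0.17, still 0.09 above the median. Adjusted p-values under this scaling are not directly comparable with the others. For Tsc22d3 in dexa+IL4 against cmB16F1, changes of 2.81 scaled and 2.77 as deposited had limma adjusted p = 2.825e-86 and 1.385e-07.

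**Figure D4:**
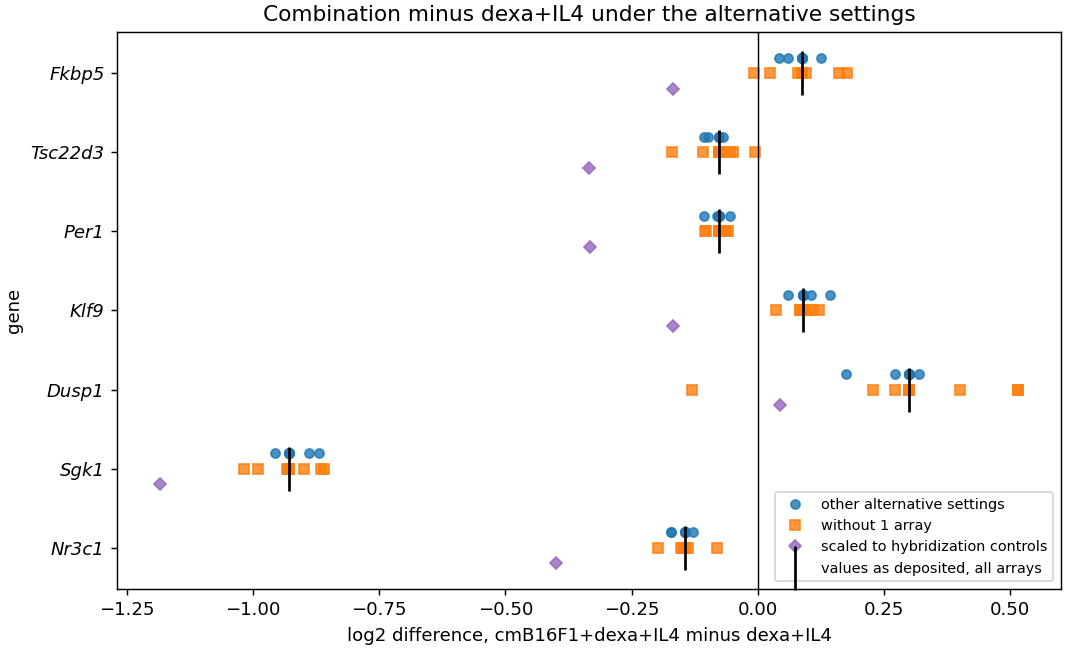
Each gene's log2 difference between combination and dexa+IL4 (horizontal axis) is shown under 19 alternative settings: 9 that leave out 1 array, scaling to hybridization controls, and 9 others, with a black bar for all arrays as deposited. Sgk1 stays between -1.18 and -0.86, Dusp1 crosses 0 without dexa+IL4 replicate 3, and scaling to hybridization controls moves all 7 genes down.

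Patterns over the 9 arrays were compared with that of Fkbp5 by Pearson correlation among the 955 clusters that varied by at least 1 log2 unit. Cluster Mm.153688 was nearest (r = 0.996), at 6.58 ± 0.05 in cmB16F1, 13.63 ± 0.16 in dexa+IL4 and 14.09 ± 0.06 in the combination (SD, n = 3). Its cmB16F1 mean lay within the range of the bacterial controls and its combination mean near the top of the scale, so the size of its rise is uncertain. Mm.387173 came next (r = 0.993), at 8.01 ± 0.43, 14.00 ± 0.04 and 14.15 ± 0.06, with both dexamethasone groups near the top of the scale, so that its rise is of uncertain size too. Tsc22d3 was number 4 in that order (r = 0.992), Klf9 number 5 (0.989) and Per1 number 7 (0.987), whereas Dusp1 was number 270 (0.463) and Sgk1 number 338 (0.204). Nr3c1, which varied by less than 1, had an r of -0.749. The arrays share 3 groups, so these values mostly describe the group means.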

How the data were processed

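The authors deposited log2 values of probe sets, normalized between 1-colour Affymetrix arrays, 1 array per sample. The labels' protocols name a spin-column RNA extraction and the array maker's cRNA labelling. How the probe sets were defined, summarised and normalized is not given in the sources used here, and the log base was inferred from the range of the values. The number of arrays, 3 per group, limits the precision.

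Where a cluster had a plus and a minus set (57 clusters, none of the 7 genes), the brighter was used. All 9 arrays entered one limma 3.58.1 model (R 4.3.3, lmFit, eBayes with trend, group only), with p-values adjusted by Benjamini-Hochberg over 17829 features, that is clusters and 19 mouse control sets. The procedure was tested on simulated data with independent arrays. That test does not cover the deviations that combination and cmB16F1 arrays shared. The 7 genes, the lists and the tests were chosen with earlier results of these data known. The text names the 7 genes and the 2 clusters nearest to Fkbp5 in pattern. The lists of other glucocorticoid-induced genes, of receptor cofactors and of cell type markers were not run, since no cluster could be paired with a name.

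Deviations from group means of equal-numbered arrays correlated across clusters at 0.617, 0.565 and 0.662 between the combination and cmB16F1, all over 0.1, so the numbers were taken to pair those groups. They were not taken to pair the others (0.224, -0.0672 and 0.116 for the combination and dexa+IL4, 0.236, -0.0234 and 0.167 for dexa+IL4 and cmB16F1). The main model held the group only, so its p-values do not use the pairing of the combination and cmB16F1. Alternatives were other scalings, a filter on dim sets, other variance models, array weights, fewer arrays and the replicate block.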

Additional observations from a re-analysis of the deposited data

Results flagged for a closer look

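Sgk1 was picked out because its level under dexamethasone and IL-4 differed between the groups with and without the medium. Against cmB16F1 its change was 0.68 in dexa+IL4, an arm that also lacks the medium, and -0.25 in the combination. Without arrays of plain medium, whether the medium alters the response to dexamethasone and IL-4 was not tested. The difference between these changes, -0.93, is the combination set against dexa+IL4, so the cmB16F1 arrays cancel, and it passed in limma (adjusted p = 2.950e-04, all 3 combination arrays below all 3 dexa+IL4 arrays). Groups of 3 arrays are too small for a test of single outlying arrays, so Dusp1 in dexa+IL4 replicate 3 was not assessed in that way.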

How the results depend on the processing

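The counts of genes passing against cmB16F1, 5 and 5, stayed between 5 and 6 under 19 alternatives, though not always with the same genes: with only the arrays compared, the combination lost Nr3c1 and gained Dusp1, so all 5 were higher. Against dexa+IL4 the count of 1 rose to 3 with scaling to hybridization controls and stayed at 1 under the other 18. With the replicate block the counts were 5, 6 and 1, the added call being Sgk1 in the combination against cmB16F1, and it changed no other call of the 7 genes. Over all 17810 clusters the block raised the calls from 4454 to 5172, from 2516 to 3052 and from 3184 to 4149. Between combination and dexa+IL4, scaling to hybridization controls gave -0.168 for Fkbp5 and -0.167 for Klf9, against 0.0884 and 0.0888. That scaling shifts all clusters alike: Klf9, Tsc22d3 and Nr3c1 changed direction or call there under it alone, and relative to the median of all clusters they stayed at 0.09, -0.07 and -0.14. Without 1 array Fkbp5 ran from -0.00680 to 0.176 and Dusp1 from -0.129 to 0.515. Over all clusters, scaling to hybridization controls changed the calls from 4454 to 1893 (dexa+IL4 against cmB16F1) and from 3184 to 7104 (combination against dexa+IL4), and the latter were 2044 and 2096 without dexa+IL4 replicate 1 or 3. It also changed the higher share from 49.7% to 5.34% against dexa+IL4 and from 46.4% to 11.7% against cmB16F1 in the combination, but only from 51.0% to 49.3% in dexa+IL4 against cmB16F1. Median centring changed the first of these to 38.1%. The cause was not tested. Closeness to the bacterial controls limits Fkbp5 in cmB16F1 and, to a lesser degree, Nr3c1.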
